A study of Mus musculus with 2 samples.

Results

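Basement membranes are thin sheets of matrix on which endothelial cells rest and in which pericytes, adipocytes and nerve fibres are wrapped. Here 10 of their structural genes, of the 27998 genes in the count tables, were followed through the stromal vascular fraction (SVF) of mouse epididymal white adipose tissue (eWAT). The genes were chosen by symbol and by known function, with earlier results of these data known, and all 10 were found. They are Col4a1 and Col4a2 (the chains of network collagen IV), Col15a1 and Col18a1 (the multiplexins, collagens with glycosaminoglycan chains), Lama4, Lamb1 and Lamc1 (an alpha, a beta and a gamma chain of laminin), Nid1 and Nid2 (the nidogens) and Hspg2 (perlecan). The single-cell RNA sequencing compared C57BL/6 mice given a low-fat diet (LFD) with mice given a high-fat diet (HFD), each for 24 wk from 6 wk of age; the methods describe the animals as C57BL/6J males. The diets are taken from the sample titles and the treatment label, while a protocol text that both samples share names a low-fat diet for each of them. Each diet is 1 library, a single 10x Chromium 3′ v3 preparation, and how many mice gave cells to it is not stated in the sources used here. No difference between diets therefore has a replicate check, and none is given a p value.

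A basement membrane is built by self-assembly. Laminins are trimers of an alpha, a beta and a gamma chain, held at the cell surface by integrins and dystroglycan. Many laminins, though not all, polymerise there. Collagen IV trimers form another, covalently crosslinked network, for which Col4a1 and Col4a2 are the chains found in nearly every tissue. Nidogens and perlecan link the networks, and collagens XV and XVIII sit at the border between the sheet and the fibrillar matrix. Lama4 joins Lamb1 and Lamc1 in a laminin typical of vessel walls and of the sheath of fat cells. In fat, the sheath of each adipocyte and the wall of each capillary are basement membranes.

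The 10 genes lie on 7 chromosomes of the GRCm38 build, in the GENCODE M21 annotation. Col4a1 (chromosome 8, 11198423 to 11312826, reverse strand) and Col4a2 (chromosome 8, 11312805 to 11449287, forward strand) are neighbours that start head to head and are read in opposite directions. Their annotated 5′ ends share 22 bases of exon, at chr8:11312805-11312826. The stretch is shown because it makes the collagen IV pair the only 2 members that share a start region, and it is given from RefSeq on GRCm38.p6, 5′ to 3′ on the forward strand, with every base shared and so none in capitals.
Col4a1 and Col4a2 shared first bases: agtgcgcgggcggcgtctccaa
Such a head-to-head overlap of 1 to 51 bases was found at the first listed start of 166 of 27025 genes (0.614%). The other members stand alone. Col15a1 (chromosome 4, 47208161 to 47313167, forward strand) and Hspg2 (chromosome 4, 137468769 to 137570630, forward strand) share a chromosome at a distance, as do Col18a1 (chromosome 10, 77052178 to 77166548, reverse strand) and Lama4 (chromosome 10, 38965515 to 39110188, forward strand). Lamb1 (chromosome 12, 31265234 to 31329644, forward strand), Lamc1 (chromosome 1, 153218922 to 153332786, reverse strand), Nid1 (chromosome 13, 13437551 to 13512269, forward strand) and Nid2 (chromosome 14, 19751265 to 19811787, forward strand) are each alone on theirs.

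The LFD library held 1113 barcodes and 7356278 unique molecular identifiers (UMIs, each a captured molecule), and the HFD library 1144 barcodes and 8412325 UMIs, with 0 barcodes in common. Barcodes with at least 200 genes (1057 and 1117) were sorted by UMIs of a few genes. Fibroblasts had at least 10 UMIs of Dcn. Those with at least 3 UMIs of Pi16, Dpp4 and Sema3c together are called Pi16 progenitors (173 barcodes in LFD, 84 in HFD) and the others matrix fibroblasts (204 and 207). Endothelial barcodes had at least 3 UMIs of Cdh5 and Cldn5 (98 and 115), mural barcodes at least 5 of Rgs5, Kcnj8, Abcc9 and Notch3 (5 and 6), and macrophages at least 10 of C1qa, C1qb and C1qc (230 and 321). A barcode that met more than 1 rule was left out of these classes, and because the rules are set on raw UMIs a shallow barcode was less likely to be placed. The class names were checked on markers outside the rules. The 5 other fibroblast markers (Lum, Pdgfra, Col1a1, Col1a2 and Col3a1) summed to 8473 and 17058 CPM (UMIs per 1000000 UMIs of the class) in LFD and HFD matrix fibroblasts and to 27.1 and 67.8 CPM in endothelial barcodes. The 4 other endothelial markers (Pecam1, Kdr, Gpihbp1 and Tie1) summed to 5654 and 6041 CPM in endothelial barcodes and to at most 26.9 CPM in fibroblasts. Cd55 and Anxa3, the other progenitor markers, summed to 1458 and 1613 CPM in Pi16 progenitors and 307 and 239.5 CPM in matrix fibroblasts. They summed to 409 and 438 CPM in endothelial barcodes, so they are not specific to progenitors. The mural class was mixed, with the other mural markers (Pdgfrb, Cspg4, Myh11 and Acta2) at 1091 and 2143 CPM beside the 5 fibroblast markers at 1607 and 1821 CPM and the 4 endothelial markers at 344 and 857 CPM.

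Most barcodes with pericyte genes also carried endothelial genes. The mural rule was met by 64 LFD and 116 HFD barcodes, of which 58 (90.6%) and 108 (93.1%) also met the endothelial rule. The 51 and 92 that met these rules and no other are described below as endothelial and mural barcodes, a set added after the data were seen. Their median depth was 13270 and 9029 UMIs, against 4318 and 3156 in endothelial barcodes. Whether they are single cells or joined cells was not tested. The mural class itself came to 17423 and 9334 UMIs in all, which limits what can be said of it.

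All levels are CPM of the summed UMIs of a class. Because the chemistry reads transcript 3′ ends, a captured molecule counts once whatever its length and CPM needs no division by length, though the capture of a 3′ end can differ between genes. Brackets hold exact Poisson 95% intervals, or conditional binomial ones for a ratio, and cover counting error only, not the spread between mice.

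Fibroblasts held most basement membrane RNA in the SVF. Of 18033 UMIs of the 10 genes in the LFD library and 21514 in the HFD library, matrix fibroblasts held 39.9% and 48.4%, Pi16 progenitors 31.8% and 16.6%, and endothelial barcodes 7.45% and 7.56%. Barcodes that met more than 1 rule held 19.1% and 25.9%, of which the endothelial and mural barcodes made up 13.1% and 16.1% of all. Macrophages, with 20.4% and 34.9% of all UMIs, held 0.311% and 0.390%. Summed over the 10 genes, the level was 4825 CPM in LFD matrix fibroblasts and 6506 in HFD, 3433 and 4327 in Pi16 progenitors, and 2432 and 3150.2 in endothelial barcodes. The order of these 3 classes was the same in both libraries.

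**Figure D1:**
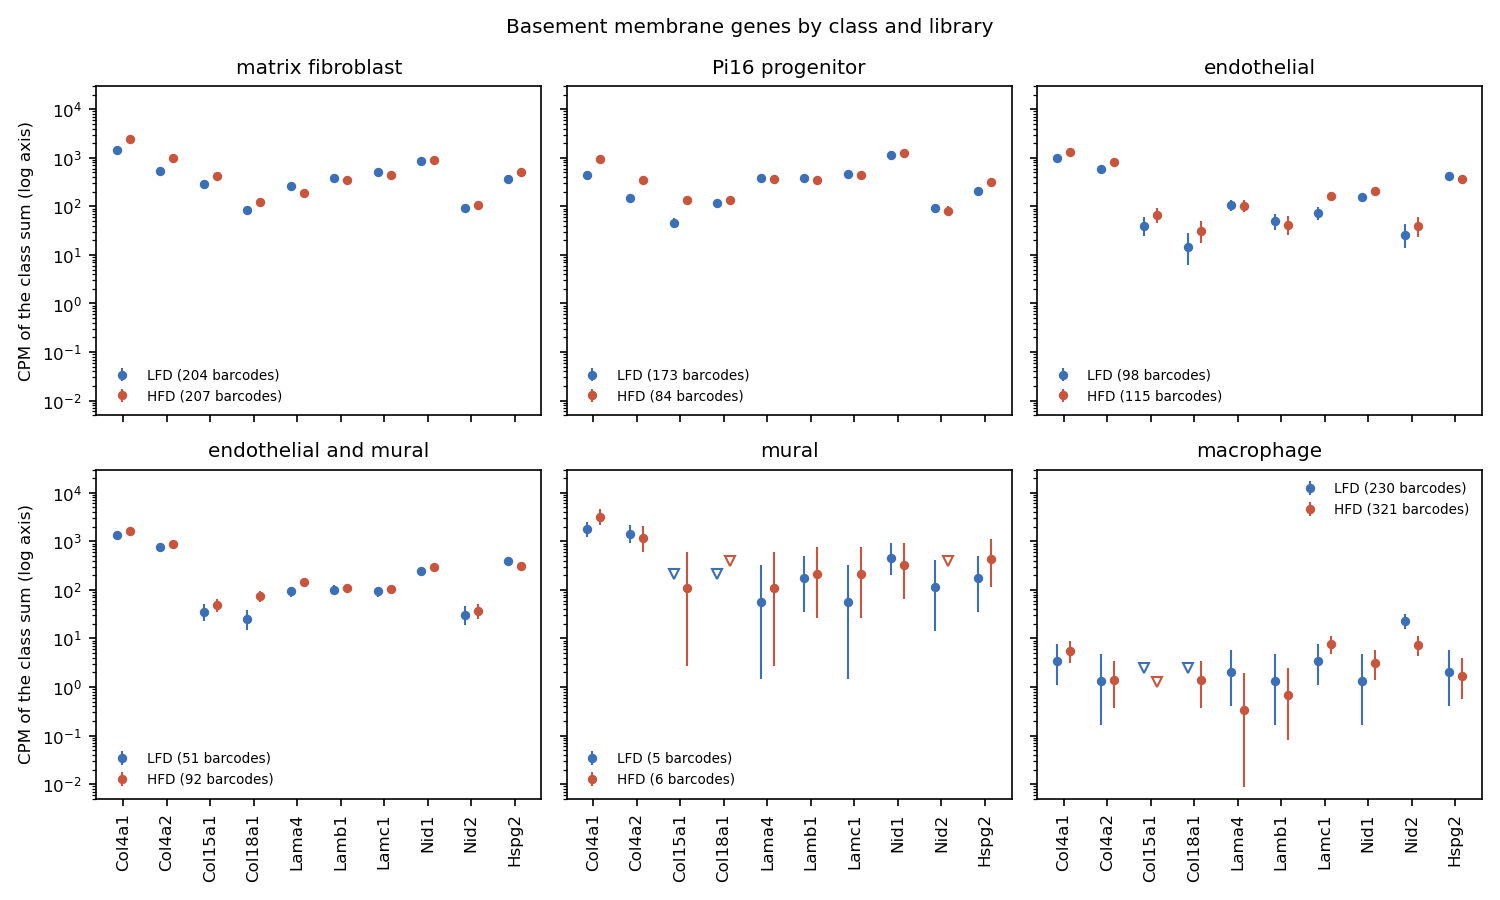
CPM of each gene in the summed UMIs of 6 classes, on a log axis, with LFD in blue and HFD in red; lines are exact Poisson 95% intervals, and open triangles mark the upper bound where no UMI was found. Col4a1 reached 2469.5 CPM in HFD matrix fibroblasts, while no gene passed 22.9 CPM in macrophages.

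Collagen IV was the most abundant pair in matrix fibroblasts and in endothelial barcodes. Col4a1 stood at 1444 CPM (1383 to 1506) in LFD and 2469.5 CPM (2393 to 2548) in HFD matrix fibroblasts, and at 972 and 1336 CPM in endothelial barcodes. Col4a2 stood at 544 and 1008 CPM in matrix fibroblasts and at 577 and 804 CPM in endothelial barcodes. In Pi16 progenitors both were lower, with Col4a1 at 452 and 928 CPM and Col4a2 at 152 and 344 CPM. There the leading gene was Nid1, the main nidogen, at 1145 and 1239 CPM, against 861 and 887 CPM in matrix fibroblasts.

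The laminin chains, the nidogens and Col15a1 were at higher levels in matrix fibroblasts than in endothelial barcodes, though found in both. Lamb1, the beta chain, was counted at 376 and 355 CPM in matrix fibroblasts and 48.9 and 40.7 CPM in endothelial barcodes. Lamc1, the gamma chain, was counted at 517 and 449 CPM in the first and 72.4 and 161 CPM in the second. Col15a1 was at 288 and 419 CPM in matrix fibroblasts but 39.8 and 65.8 CPM in endothelial barcodes. Lama4 was at 258 and 184 CPM in the first, 107 and 103 CPM in the second and 92.7 and 144 CPM in endothelial and mural barcodes. In endothelial barcodes Nid1 was at 154 and 203 CPM and Nid2 at 25.3 and 38.7 CPM, the latter against 90.6 and 104 CPM in matrix fibroblasts. Perlecan was lower in Pi16 progenitors (202 and 312 CPM) than in these 2 classes, whose order changed between the libraries. Hspg2 was at 362 and 503 CPM in matrix fibroblasts and 422 and 368 CPM in endothelial barcodes. The HFD intervals of these 2 classes (469 to 539 and 317 to 424 CPM) did not overlap, while the LFD ones did.

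The classes were compared in edgeR, with 2 sums per class (1 from each library) and a term for the library. The library term takes out the difference between the LFD and the HFD library that all classes share. The p values thus measure how far class differences vary between these 2 libraries, pooled over the 4 stromal classes. This spread includes any diet effect that differs between classes. Because the fit found no gene-specific spread beyond the common trend, the p values are small for deeply counted genes. Of the 10 genes, 8 were lower in endothelial barcodes than in matrix fibroblasts and 0 were higher, where 24.5% of all 8458 genes tested were called lower and 20.6% higher. The largest differences were in Lamb1 (log2 ratio -3.20, adjusted p = 2.02e-39), Col15a1 (-2.95, adjusted p = 5.99e-36), Nid1 (-2.47, adjusted p = 4.07e-40) and Col18a1 (-2.39, adjusted p = 2.25e-14). Lamc1 (-2.24), Nid2 (-1.79), Lama4 (-1.25) and Col4a1 (-0.90, adjusted p = 1.01e-08) were also called lower. The exceptions were Col4a2 (-0.30, adjusted p = 0.120) and Hspg2 (-0.28, adjusted p = 0.185), whose CPM was higher in endothelial barcodes in the LFD library and lower in the HFD library. The median log2 ratio of the members was -2.01, against -0.054 over all genes tested. TMM scaling shifted the median of all genes by -0.18 in this comparison, and the same count of 8 was called with class totals in its place.

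Pi16 progenitors and matrix fibroblasts differed in collagen IV, Col15a1, perlecan and Lama4, while the remaining laminin and nidogen genes and Col18a1 did not pass the test. Of the 10 genes, 4 were lower in Pi16 progenitors and 1 was higher, where 6.35% of all genes tested were called lower and 6.77% higher. Col15a1 (log2 ratio -2.16, adjusted p = 2.98e-29), Col4a2 (-1.75, adjusted p = 7.27e-24), Col4a1 (-1.60, adjusted p = 1.81e-24) and Hspg2 (-0.83, adjusted p = 1.44e-05) were the lower genes. Lama4 was the higher one (0.69, adjusted p = 4.34e-04), at 376 and 368 CPM against 258 and 184 CPM. Lamb1, Lamc1, Nid1, Nid2 and Col18a1 were not called, with log2 ratios between -0.20 and 0.38. The calls of Hspg2 and Lama4 were lost without the library term (adjusted p = 0.0538 and 0.0664 in edgeR), which left 3 genes called. Nid1 was called higher with class totals in place of TMM (0.45, adjusted p = 0.0232 in edgeR) and with barcodes of 2 classes kept (0.47, adjusted p = 0.0298), each of which called 6 members.

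A minority of the Pi16 progenitor barcodes carried mesothelial markers, and for Col18a1 and Nid2 that minority held most of the UMIs of the class. At least 5 UMIs of mesothelial markers, genes of the cell layer that covers visceral fat, were found in 25 of the 173 LFD and 12 of the 84 HFD barcodes, which held 20.2% and 18.4% of the UMIs of the class. These barcodes held 60.2% and 52.2% of its Col18a1 UMIs, at 350.2 and 390.3 CPM against 58.5 and 80.3 CPM in the others. Nid2 behaved alike, at 258 and 232 CPM in them against 50.3 and 47.6 CPM. The other 8 genes were lower in the barcodes with mesothelial markers in both libraries, for example Nid1 at 139 and 146 CPM against 1399 and 1485 CPM. Without these barcodes 8 members differed between Pi16 progenitors and matrix fibroblasts, where 11.5% of 8067 genes were called. Col18a1 then turned from 0.25 to -0.59 (edgeR adjusted p = 0.0409), Nid2 came to -0.99 (adjusted p = 1.93e-04), and Nid1 to 0.68 (adjusted p = 3.74e-04).

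**Figure D2:**
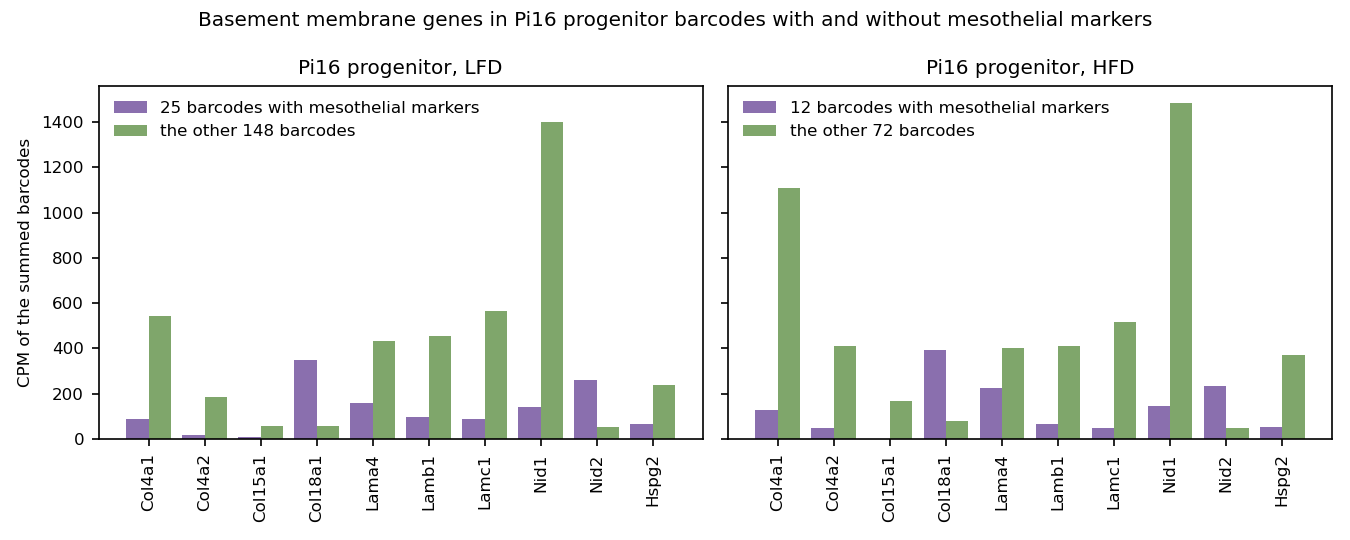
CPM of each gene in the summed Pi16 progenitor barcodes that carried at least 5 UMIs of mesothelial markers (purple) and in the others (green), for LFD (left) and HFD (right), with no error bars drawn. Col18a1 and Nid2 are the 2 genes whose purple bar is the taller one in both libraries.

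Mural barcodes were rich in collagen IV. With 31 and 30 UMIs, Col4a1 stood at 1779 CPM (1209 to 2526) in LFD and 3214 CPM (2169 to 4588) in HFD. Col4a2 stood at 1435 (929 to 2118) and 1178 CPM (588 to 2109). Each of the other 8 genes had at most 8 UMIs, and Col18a1 had 0 in both libraries, which allows up to 172 and 321 CPM at a limit of 3 counts. Against matrix fibroblasts 8 members were called lower under TMM scaling and 0 higher (7.22% and 1.44% of all genes), and against endothelial barcodes 0 were called by edgeR at an adjusted p under 0.05 (5.38% of all genes lower and 1.53% higher), with 1 member, Hspg2, at an unadjusted p under 0.05, and 0 by DESeq2. These calls hang on the scaling of sums this small. TMM moved the median of all genes by -1.08 and -0.90 on the log2 scale, and with class totals 0 and 2 members were called, Col4a1 turning from -0.77 to 0.35 against matrix fibroblasts. The endothelial and mural barcodes, which were deep enough to measure, held Col4a1 at 1367 and 1667 CPM, Col4a2 at 751 and 895 CPM and Hspg2 at 392 and 308 CPM, with the other 7 genes between 25.2 and 291 CPM.

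Leukocytes gave the background. A UMI of Col4a1 was found in 2.17% (0.710 to 5%, Clopper-Pearson) of LFD and 4.36% (2.40 to 7.21%) of HFD macrophages, whose median depth was 6328 and 6915 UMIs, and in 1 of 88 and 0 of 35 lymphocyte barcodes. In matrix fibroblasts, at 7888 and 7546 UMIs, the share was 85.8% (80.2 to 90.3%) and 96.1% (92.5 to 98.3%). Of the others, Lamc1 had 5 and 22 UMIs in macrophages and the rest at most 9 in a library, with the exception of Nid2. It had 34 UMIs in LFD and 21 in HFD macrophages, or 22.9 (15.8 to 32.0) and 7.18 CPM (4.44 to 11), and was found in 12.6% and 5.92% of these barcodes. Nid1, the more abundant nidogen of fibroblasts, had 2 and 9 UMIs there, so that the ratio of Nid1 to Nid2 was 0.0588 (0.00685 to 0.229) and 0.429 (0.173 to 0.976) in macrophages against 9.50 and 8.49 in matrix fibroblasts.

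The diets are compared below by the ratio of HFD to LFD CPM within a class. In matrix fibroblasts, which were about equally many and equally deep in both libraries, the summed level of the 10 genes was 1.35 times as high in HFD (1.31 to 1.39). The ratios differed by role in this class. Collagen IV, the multiplexins and perlecan were higher in HFD, with ratios of 1.75 (1.67 to 1.83), 1.46 (1.31 to 1.63) and 1.39 (1.25 to 1.55). The laminin chains together were lower, at 0.859 (0.801 to 0.920), and the nidogens stood at 1.04 (0.969 to 1.12), an interval that holds 1. In the same class the 5 fibroblast markers outside the rules, 3 of them fibrillar collagen genes, went from 8473 to 17058 CPM, and the 8 mural markers from 160.4 to 258 CPM (in Pi16 progenitors from 144 to 204 CPM), and their part in these ratios was not tested. Pi16 progenitors showed the same order of roles over all their barcodes, with 2.11 (1.93 to 2.30) for collagen IV, 1.69 (1.41 to 2.02) for the multiplexins, 1.54 (1.31 to 1.82) for perlecan, 1.07 (0.991 to 1.15) for the nidogens and 0.935 (0.865 to 1.01) for the laminin chains. The multiplexin and perlecan intervals overlap in both classes. Without the barcodes with mesothelial markers, Col15a1 went from 55.5 to 168 CPM and Col18a1 from 58.5 to 80.3 CPM in Pi16 progenitors. Col4a1 went from 544 to 1109 CPM and Col4a2 from 185 to 411 CPM, and the order of collagen IV and the multiplexins did not hold.

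**Figure D3:**
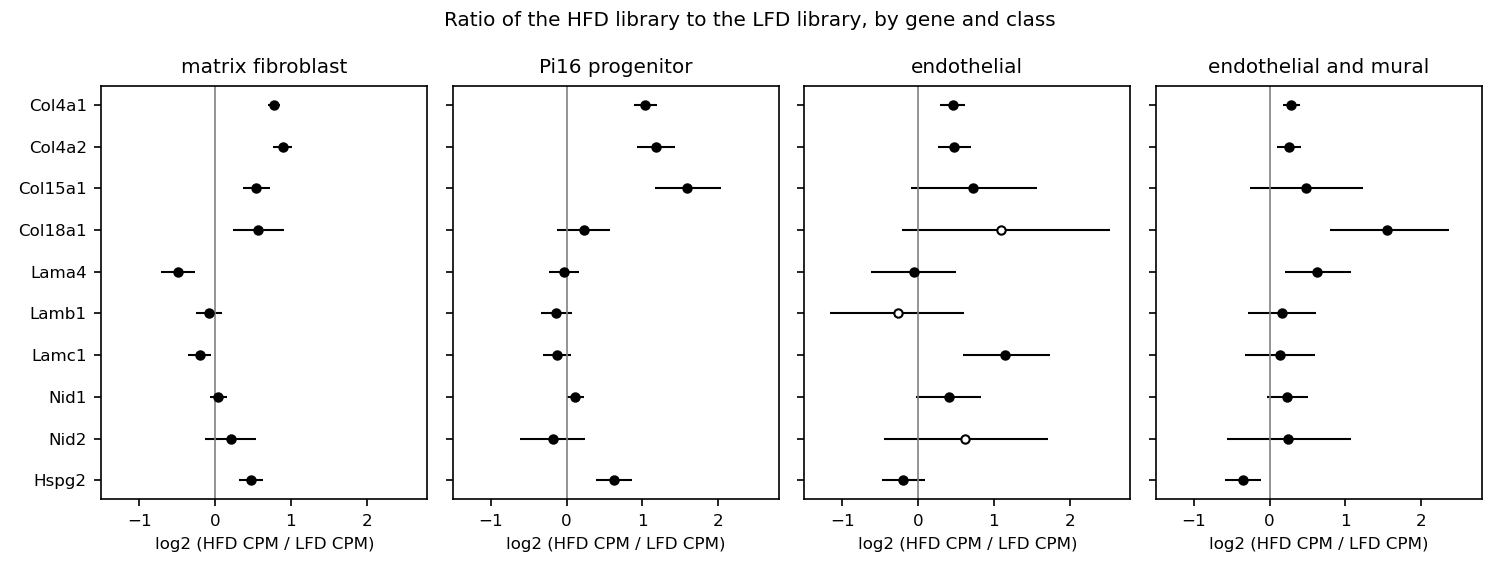
Log2 ratio of HFD to LFD CPM for each gene in 4 classes, with exact conditional 95% intervals from counts; open points have fewer than 50 UMIs over both libraries. Col4a1 and Col4a2 lie to the right of 0 in all 4 panels, while Lama4 lies at -0.49 in matrix fibroblasts and 0.63 in endothelial and mural barcodes.

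Gene by gene, Col4a1 went from 2151 UMIs (1444 CPM) in LFD to 3949 UMIs (2469.5 CPM) in HFD matrix fibroblasts, a ratio of 1.71 (1.62 to 1.80). Col4a2 went from 810 to 1612 UMIs, a ratio of 1.85 (1.70 to 2.02). These were the 2 members past 1.5-fold higher in this class and none was past 1.5-fold lower, where 6.22% of the 6415 genes with at least 50 UMIs were past it higher and 8.4% lower. Col15a1 (ratio 1.46, 1.29 to 1.65) and Col18a1 (1.49, 1.18 to 1.87) lay just short of that fold. The median log2 ratio was 0.34 over the members and -0.0072 over all genes with 50 UMIs.

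In Pi16 progenitors Col4a1, Col4a2, Col15a1 and Hspg2 were higher in HFD, and whether these ratios differ from those of matrix fibroblasts was not tested. Col4a1 stood at 2.06 (1.86 to 2.28), Col4a2 at 2.27 (1.91 to 2.70) and Col15a1, from 45.5 to 137 CPM, at 3.02 (2.24 to 4.09). With Hspg2 (1.54, 1.31 to 1.82) these made 4 members past 1.5-fold higher and 0 lower, against 5.8% higher and 7.7% lower of 5985 genes. Col18a1, whose UMIs lay largely in barcodes with mesothelial markers, stood at 1.17 (0.919 to 1.48). Mesothelial markers summed to 1352 CPM in LFD and 1139 CPM in HFD Pi16 progenitors, and without those barcodes the log2 ratio of the 10 genes together was 0.33, as it was with them. Under the study's limits on genes and mitochondrial UMIs, which left 22 and 16 Pi16 progenitors, it was 0.96. Lama4, which was higher in Pi16 progenitors than in matrix fibroblasts, stood at 0.979 (0.851 to 1.12) between the diets.

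Collagen IV was also higher in HFD endothelial barcodes, with and without mural genes. In endothelial barcodes Col4a1 stood at 1.38 (1.23 to 1.54) and Col4a2 at 1.39 (1.20 to 1.62), and in endothelial and mural barcodes at 1.22 (1.13 to 1.32) and 1.19 (1.07 to 1.33). Past 1.5-fold were Lamc1 (2.22, 1.51 to 3.32, from 40 and 83 UMIs) and Col15a1 (1.65, an interval of 0.940 to 2.97) in endothelial barcodes, 2 of the 7 members with at least 50 UMIs, with none lower (5.89% of 3397 genes higher and 5.8% lower). Nid1 stood at 1.32 (0.984 to 1.78) and Lama4 at 0.961 (0.651 to 1.42), while Nid2, Lamb1 and Col18a1 had at most 48 UMIs over both libraries and intervals that hold 1. The count of 2 past 1.5-fold in endothelial barcodes fell to 1 with barcodes of 2 classes kept, under the study's limits and with doubled thresholds, and was 4 with per-cell means. Of the 10 members in endothelial and mural barcodes 2 were past 1.5-fold higher, Col18a1 (2.91, 1.73 to 5.13) and Lama4 (1.55, 1.15 to 2.10), and none lower (5.36% and 4.32% of 5073 genes). Col15a1, Lamb1, Lamc1, Nid1 and Nid2 stood between 1.10 and 1.39 there, with intervals that hold 1. Summed by role, the laminin chains were at 1.33 (1.05 to 1.70) in endothelial and 1.25 (1.05 to 1.49) in endothelial and mural barcodes, and the nidogens at 1.35 (1.03 to 1.78) and 1.18 (0.984 to 1.41), whereas in matrix fibroblasts the laminin chains lay below 1. The laminin sum in endothelial barcodes was raised by Lamc1 alone, with Lama4 and Lamb1 (0.832, 0.447 to 1.53) below 1. In endothelial and mural barcodes Lama4 was the only laminin chain whose interval left out 1. Perlecan was lower in HFD endothelial and mural barcodes, while in endothelial barcodes its interval held 1. Hspg2 stood at 0.873 (0.717 to 1.06) in endothelial barcodes, where the mean over single barcodes lay the other way (358 CPM in LFD and 433 in HFD), and at 0.786 (0.666 to 0.928) in endothelial and mural barcodes. In the mural class 1 member reached 50 UMIs, Col4a1 at 1.81 (1.06 to 3.09), among 46 genes of which 32.6% were past 1.5-fold higher and 10.9% lower. With TMM or per-cell means it was no longer past 1.5-fold and under the study's limits no member reached 50 UMIs, and Col4a2 stood at 0.821 (0.365 to 1.73) from 25 and 11 UMIs. In these 5 and 6 barcodes the median mitochondrial share was 7.24% and 16.1%, and adipocyte markers summed to 2985 and 214 CPM. Adipocyte transcripts moved with the diet in these vessel classes, from 1274 to 405 CPM summed over 5 markers in endothelial barcodes and from 963 to 365 CPM in endothelial and mural barcodes. The 6 fibroblast markers moved the other way, from 61.5 to 106 CPM in endothelial barcodes and from 592 to 961 CPM in endothelial and mural barcodes. The 8 mural markers went from 152 to 209 CPM in endothelial barcodes and from 3206 to 3180 CPM in endothelial and mural barcodes. The median endothelial depth was lower in HFD. The part of these markers and of depth in the ratios was not tested.

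The laminin chains and nidogens of fibroblasts lay below 1 or had intervals that hold it, except Nid1 in Pi16 progenitors, whose interval lay just above it. In matrix fibroblasts Lama4 was at 0.714 (0.611 to 0.833) and Lamc1 at 0.869 (0.784 to 0.963), both lower in HFD, whereas Lamb1 (0.943, 0.838 to 1.06), Nid1 (1.03, 0.954 to 1.11) and Nid2 (1.15, 0.913 to 1.46) had intervals that hold 1. In Pi16 progenitors all 3 laminin chains had such intervals, from 0.790 at the lowest bound to 1.12 at the highest, while Nid1 stood at 1.08 (1.002 to 1.17) and Nid2 at 0.883 (0.652 to 1.18). Within the limits of 200 to 2500 genes and under 5% mitochondrial UMIs given in the study's methods, which left 55 and 75 matrix fibroblasts, Lamc1 turned from -0.20 to 0.34 on the log2 scale. Immediate early genes, which dissociation of tissue is known to induce, summed to 21766 CPM in LFD and 18166 CPM in HFD matrix fibroblasts, and their part was not tested.

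The collagen IV difference in matrix fibroblasts was spread over the class. Among single LFD barcodes the 10th, 50th and 90th percentiles of Col4a1 were 0, 1185 and 2866 CPM, and among HFD barcodes 507, 1948 and 4555 CPM. Each of these percentiles was higher in HFD, though the distributions overlap widely. The share of barcodes with a Col4a1 UMI, thinned to 1000 UMIs per barcode, was 63.3% of 199 in LFD and 80.5% of 205 in HFD, after 5 and 2 shallower barcodes were left out. For Col4a2 it was 37.2% and 59.0%, against 79.4% and 93.7% unthinned. In Pi16 progenitors the levels were skewed in both diets. The median of Col4a1 was 203 CPM in LFD and 429.7 CPM in HFD, and the 90th percentile 1254 and 3003 CPM, so most of these barcodes lay below the matrix fibroblast median in either diet. Nid1 was spread alike in both diets, with a median of 1225 and 1304 CPM in Pi16 progenitors and 748 and 741 CPM in matrix fibroblasts.

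**Figure D4:**
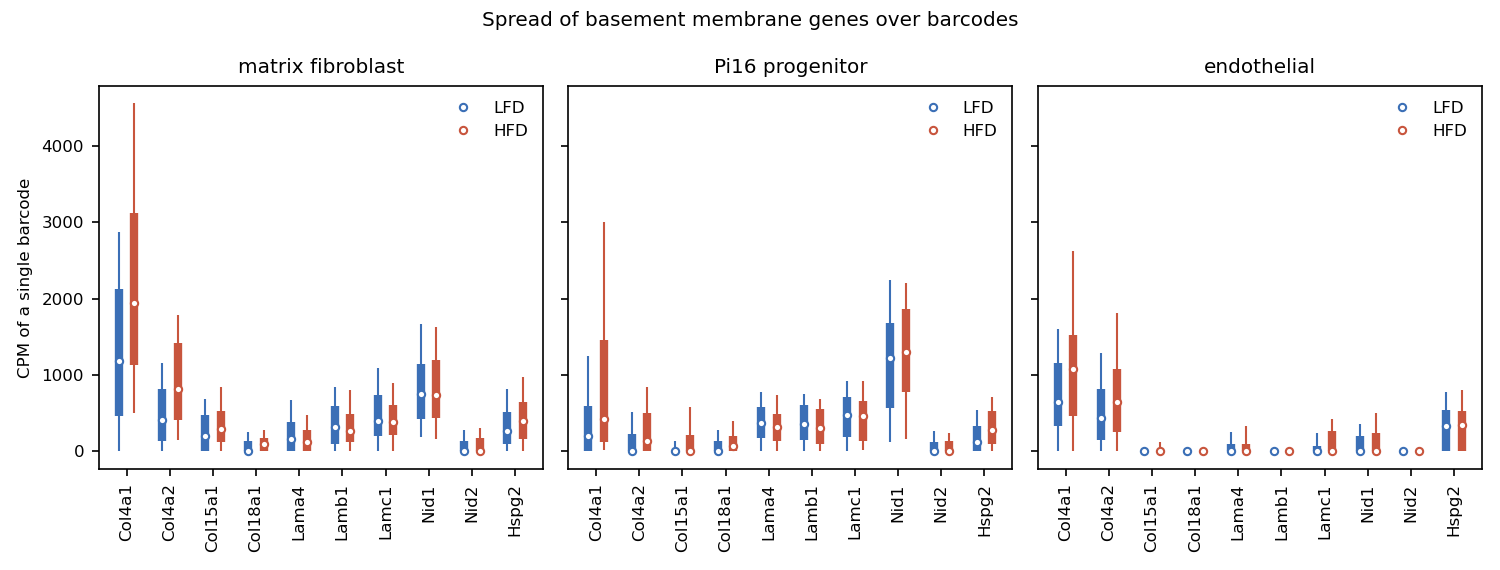
CPM of each gene in single barcodes of 3 classes, LFD in blue and HFD in red; thin lines run from the 10th to the 90th percentile, thick lines from the 25th to the 75th, and circles mark the median. In matrix fibroblasts the Col4a1 median is 1185 CPM in LFD and 1948 CPM in HFD, and the lines overlap.

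The collagen IV chains varied together from cell to cell in fibroblasts. Across barcodes, Spearman's rho between the CPM of Col4a1 and Col4a2 was 0.65 over 204 LFD and 0.76 over 207 HFD matrix fibroblasts, 0.59 and 0.72 over 173 and 84 Pi16 progenitors, and 0.42 and 0.22 over 98 and 115 endothelial barcodes. It was the highest of the 45 pairs of members in both fibroblast classes of both libraries. Barcodes of a class share a library and differ in depth, and rho between Col4a1 and total UMIs was 0.19 and 0.37 in matrix fibroblasts, so these values are descriptions.

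The balance of the 2 chains was tilted further to Col4a1 in fibroblasts than in endothelial barcodes, with or without mural genes. Collagen IV of this kind assembles from Col4a1 and Col4a2 chains in a fixed proportion, and the 2 genes start in the shared stretch printed above. The ratio of Col4a1 to Col4a2 UMIs was 2.66 (2.45 to 2.88) and 2.45 (2.31 to 2.60) in LFD and HFD matrix fibroblasts and 2.98 (2.58 to 3.45) and 2.70 (2.35 to 3.11) in Pi16 progenitors. It was 1.68 (1.46 to 1.94) and 1.66 (1.47 to 1.88) in endothelial barcodes and 1.82 (1.64 to 2.02) and 1.86 (1.71 to 2.03) in endothelial and mural barcodes. In each library the intervals of the 2 fibroblast classes did not overlap those of these 2 sets, while within each class those of the diets did. In the small mural class the ratio was 1.24 (0.709 to 2.19) in LFD and 2.73 (1.33 to 6.03) in HFD, where the interval overlaps those of both fibroblast classes. The number itself depends on how well each 3′ end is captured, and only its change between classes can be read. The multiplexins were balanced differently in the fibroblast classes, with 3.40 and 3.33 Col15a1 UMIs per Col18a1 UMI in matrix fibroblasts and 0.388 and 1 in Pi16 progenitors, where the barcodes with mesothelial markers hold much of Col18a1. Without those barcodes the ratio in Pi16 progenitors was 0.949 and 2.09.

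**Figure D5:**
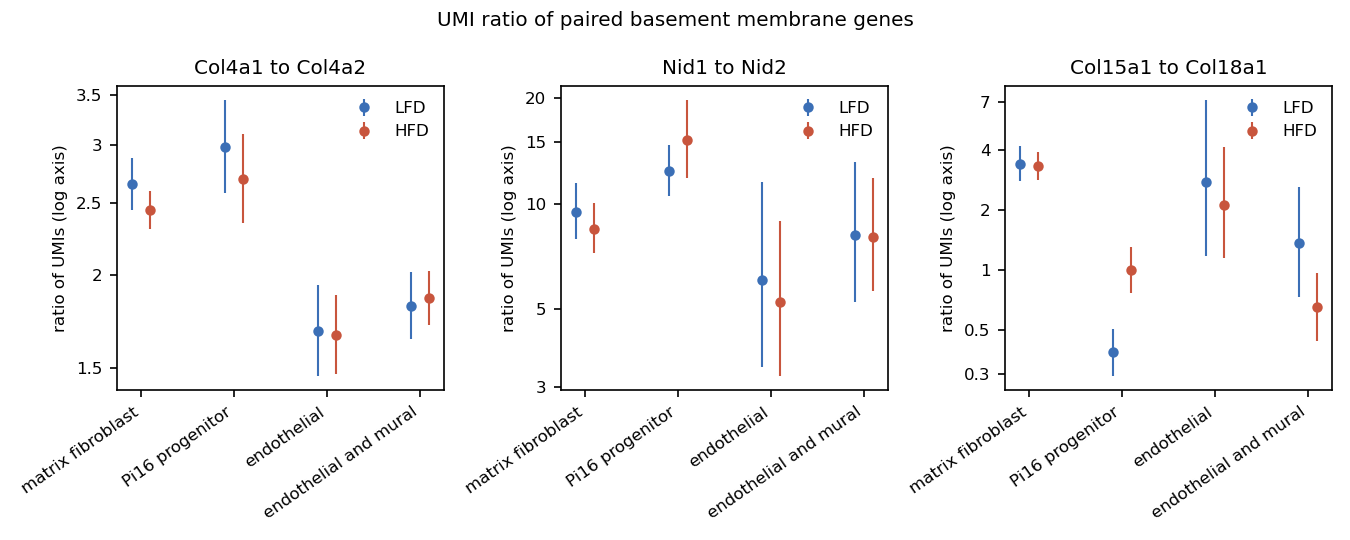
Ratio of UMIs of paired genes (Col4a1 to Col4a2, Nid1 to Nid2, Col15a1 to Col18a1) in 4 classes, on log axes, LFD in blue and HFD in red, with exact 95% intervals from counts. Col4a1 to Col4a2 lies at 2.45 and above in the fibroblast classes and at 1.86 and below in endothelial barcodes and in endothelial and mural barcodes.

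The rest of the basement membrane was followed through 20 further protein genes, 13 genes of chain assembly and crosslinking and 11 receptor genes. Between endothelial barcodes and matrix fibroblasts, 14 of the 20 proteins could be tested, of which 9 were lower and 3 higher in endothelial barcodes, with a median log2 ratio of -1.96, beside the 24.5% of all genes called lower and 20.6% higher and their median of -0.054. The higher ones were Lama5, the alpha chain of the other main vascular laminin (26 and 31 UMIs, against 0 in matrix fibroblasts of both libraries), Tinagl1 (217 and 277 UMIs, against 2 and 3) and Agrn, agrin (log2 ratio 1.34, adjusted p = 0.0217 in edgeR). Lama4 was found in both classes, whereas Lama2, another laminin alpha chain, was at 432 and 437 CPM in matrix fibroblasts and at 0 and 1 UMIs in endothelial barcodes. Of the 13 assembly genes 10 were lower and 1, the collagen IV crosslinking peroxidase Pxdn (0.80, adjusted p = 2.26e-04), was higher. Of the 7 receptors tested 4 were higher, Itga6, Itga1, Bcam and Itgb1, and 3, Dag1, Ddr1 and Ddr2, lower. Itga6, a laminin-binding integrin chain, was at 474 and 602 CPM in endothelial barcodes and at 1 and 2 UMIs in matrix fibroblasts, while Ddr2, a receptor for fibrillar collagen, was at 407 and 323 CPM in matrix fibroblasts and 7.24 and 19.4 CPM in endothelial barcodes.

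Between Pi16 progenitors and matrix fibroblasts the same lists split further, where 6.35% of all genes were called lower and 6.77% higher. Of the 14 proteins tested 5 were lower in Pi16 progenitors (Col4a4, Lama2, Sparc, Egflam and Smoc2) and 3 higher (Hmcn1, Tinagl1 and Ntn4). Of the 13 assembly genes 3 were lower (Serpinh1, Plod1 and Lox) and none higher, and of the 7 receptors 3 were higher (Itga6, Ddr2 and Bcam) and none lower. Smoc2 (-1.35, adjusted p = 2.24e-14 in edgeR) and the lysyl oxidase Lox (-1.5, adjusted p = 1.13e-14) were lower, and Ntn4, a netrin that binds laminin (1.63, adjusted p = 1.82e-10), was higher. These 3 values were chosen after they were seen. In the mural class 5 proteins (Col4a5, Lama2, Lamb2, Sparc and Smoc2), 3 assembly genes (Serpinh1, Lox and Loxl1) and 1 receptor (Ddr2) were lower than in matrix fibroblasts, and 1 protein (Tinagl1) and 1 receptor (Itga1) higher, beside 7.22% and 1.44% of all genes, all subject to the scaling limit above. Several of these calls rest on very few mural UMIs, such as Itga1 with 3 in LFD and 0 in HFD. Lamb2 had 1 and 0, and Col4a5 had 0 in both libraries.

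Between diets, 10 of the 13 genes that handle collagen chains lay above 0 in matrix fibroblasts, and Plod3, Colgalt1 and Mia3 below it. All 13 had at least 50 UMIs there, 5 were past 1.5-fold higher (Serpinh1, P4ha2, Plod1, Plod2 and Loxl2) and none lower (6.22% and 8.4% of all genes), and their median log2 ratio was 0.45, against -0.0072 over all genes. Serpinh1, a collagen chaperone, went from 848 to 1323 CPM (1.56, 1.45 to 1.67), and the lysyl hydroxylases Plod1 (1.94, 1.49 to 2.55) and Plod2 (1.65, 1.30 to 2.10) were also higher. Loxl1, the second most abundant of the list, was at 1.47 (1.30 to 1.67). In Pi16 progenitors 2 were past 1.5-fold higher, the prolyl hydroxylase subunit P4ha2 (1.99, 1.29 to 3.05) and Plod2 (1.55, 1.15 to 2.09), with none lower (5.8% and 7.7% of all genes) and a median of 0.38. These enzymes and the chaperone also serve fibrillar collagens. In endothelial barcodes P4hb was higher (1.56, 1.08 to 2.27) and Mia3, which loads collagen into transport carriers, lower (0.546, 0.320 to 0.912), while the most abundant, Serpinh1, stood at 1.14 (0.927 to 1.40) and Pxdn at 0.669 (0.494 to 0.900).

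Among the other basement membrane proteins Sparc, which binds collagen IV, was the most abundant in fibroblasts and in endothelial barcodes, and was higher in HFD in all but the mural class. It went from 3537 to 7516 CPM in matrix fibroblasts (2.12, 2.06 to 2.19), from 2656 to 5389.8 CPM in Pi16 progenitors (2.03, 1.95 to 2.12) and from 2549 to 4139.5 CPM in endothelial barcodes (1.62, 1.52 to 1.74). It stood at 1.31 (1.25 to 1.37) in endothelial and mural barcodes and at 0.599 (0.370 to 0.942) in the mural class, from 81 and 26 UMIs. The other 4 collagen IV chains lay the other way in matrix fibroblasts, with Col4a3 at 0.311 (0.142 to 0.630, from 33 and 11 UMIs), Col4a5 at 0.730 (0.576 to 0.924) and Col4a6 at 0.346 (0.168 to 0.671, from 35 and 13 UMIs). Col4a4, part of the network best known from kidney and other specialised membranes, had 120 and 51 UMIs in LFD and HFD matrix fibroblasts, a ratio of 0.396 (0.280 to 0.554), and stood at 0.398 (0.180 to 0.792) in Pi16 progenitors, where the intervals of Col4a3, Col4a5 and Col4a6 hold 1. Smoc2 (1.20, 1.10 to 1.32) and Lama2 (1.07, 0.908 to 1.25), the second most abundant of the list in matrix fibroblasts and, over both libraries, in Pi16 progenitors, and Tinagl1 in endothelial barcodes (1.37, 1.14 to 1.64) were within 1.5-fold. Lama2 was past it in endothelial and mural barcodes, at 2.47 (1.57 to 4.01) from 26 and 80 UMIs. Over the list, 1 gene was past 1.5-fold higher and 1 lower in matrix fibroblasts, of 9 with at least 50 UMIs, beside 6.22% and 8.4% of all genes.

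None of the 4 receptor genes with at least 50 UMIs in matrix fibroblasts, or of the 5 in Pi16 progenitors, was past 1.5-fold between diets, beside the 6.22% higher and 8.4% lower of all genes in the former and 5.8% and 7.7% in the latter. Ddr2 was at 0.793 (0.704 to 0.894) in matrix fibroblasts and 0.765 (0.680 to 0.860) in Pi16 progenitors, and Itgb1, the shared integrin beta chain, at 1.05 (0.921 to 1.19) and 1.24 (1.07 to 1.44). In endothelial barcodes Itgb1 (1.26, 1.07 to 1.48) and Itga6 (1.27, 1.07 to 1.503) were higher, whereas in endothelial and mural barcodes they stood at 0.926 (0.821 to 1.04) and 0.925 (0.804 to 1.06). Bcam, a laminin receptor, was lower in endothelial barcodes (0.688, 0.514 to 0.917) and in endothelial and mural barcodes (0.510, 0.4 to 0.648). Dag1, dystroglycan, stood at 0.657 (0.391 to 1.08) in the former, an interval that holds 1, and was higher in the latter (1.505, 1.14 to 1.999).

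Across 12 sums of a class and a library, the 5 genes most like Col4a1 among 9443 genes, by Pearson's r of log2 CPM with 10 added, were Arhgef40 (0.995), Osmr (0.995), Col4a2 (0.995), Sparc (0.991) and Adamts1 (0.984). Among those most like Col15a1, which was highest in matrix fibroblasts, were Spon2 (0.970), P4ha2 (0.969), Nrep (0.966) and Sned1 (0.965). The sums share libraries and are dominated by the contrast of stroma with leukocytes, so that r near 1 says only that a gene is high in the same classes.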

How the data were processed

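Single-cell RNA of the epididymal SVF was measured in 2 libraries, LFD and HFD, with 10x Chromium 3′ v3 chemistry. The deposited values are UMI counts per gene and barcode, which the authors made with Cell Ranger (3.0.2 per the file headers) on mm10, without normalization and for barcodes called as cells. Depth was 7356278 UMIs in LFD and 8412325 in HFD. The 10 genes, the companion lists, the marker lists and the class rules were chosen with earlier results of these data known.

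Barcodes were classed by UMIs of marker genes as given above. Those meeting more than 1 of the 4 class rules were set aside, which is how doublets were treated, and no doublet caller was run. UMIs were summed per class and library. Levels are CPM with exact Poisson 95% intervals, and ratios have conditional binomial ones (scipy 1.17.1). PCR copies are collapsed by the UMIs, and intervals and the limit of 3 counts cover counting error only. Shares of barcodes with a UMI have exact binomial (Clopper-Pearson) intervals. Classes were compared with the quasi-likelihood test of edgeR 4.0.16 (R 4.3.3) on 8 sums (4 stromal classes in 2 libraries), with TMM scaling, filterByExpr at a minimum count of 10, terms for class and library, and Benjamini-Hochberg adjustment over all 8458 genes at 0.05. The 2 diets have 1 library each, so they were compared without a test, beside the share of genes with at least 50 UMIs past 1.5-fold. The fit and the ratio intervals were tested on simulated data.

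All 10 members were compared in every class. Of the companion lists, the 2 genes of highest CPM and up to 3 past 1.5-fold with an interval that leaves out 1 are named per list and class, and for likeness the 5 genes of highest r, of which 1 is not reported here. Any other named gene was chosen after its values were seen.

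Alternatives were DESeq2 1.42.0, no library term, class totals in place of TMM, no low-count filter, macrophage sums in the fit, doubled thresholds, barcodes of 2 classes kept, the study's limits of 200 to 2500 genes and under 5% mitochondrial UMIs, per-cell means, TMM between diets, thinning to 1000 UMIs and leaving out each library. The edgeR fit without mesothelial barcodes and the one with endothelial and mural barcodes in the mural class were added after the data were seen. Clustering, cell types outside these classes and proteins were not analysed here.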

Additional observations from a re-analysis of the deposited data

Results flagged for a closer look

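Lama4, a laminin alpha chain, lay on opposite sides of 0 in endothelial and mural barcodes and in matrix fibroblasts, with a log2 ratio of HFD to LFD CPM of 0.63 in endothelial and mural barcodes and -0.49 in matrix fibroblasts, and the counting intervals of both leave out 0. In endothelial barcodes its ratio was 0.961 (0.651 to 1.42) and in Pi16 progenitors 0.979 (0.851 to 1.12), both with intervals that hold 1. Lamc1, the gamma chain, lay at a log2 ratio of 1.15 in endothelial barcodes and -0.20 in matrix fibroblasts, with a ratio of 1.10 and an interval that holds 1 in endothelial and mural barcodes, though the matrix fibroblast value turned to 0.34 under the study's limits on genes and mitochondrial UMIs. Hspg2, perlecan, lay the other way round, with 0.48 in matrix fibroblasts and 0.63 in Pi16 progenitors against -0.35 in endothelial and mural barcodes. The difference between the classes was not tested for any of these genes, since each diet has 1 library. The summed level of 6 fibroblast markers in endothelial and mural barcodes went from 592 CPM in LFD to 961 CPM in HFD, and their part was not tested.

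Endothelial and mural barcodes, which the class comparisons leave out, held the 10 genes at 0.313% of their UMIs in LFD and 0.367% in HFD. In endothelial barcodes the summed level of 2432 and 3150.2 CPM was of the same order.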

How the results depend on the processing

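Endothelial barcodes against matrix fibroblasts gave 8 members called under each of the 9 alternatives run. Of the log2 ratios of members between classes over all alternatives, 371 of 452 kept their direction and side of the threshold, and of the diet ratios of members 139 of 161 moved by less than their interval. Thinning moved 58 of 60 shares of barcodes. Without the library term, which is the replicate block of this design (no replicate block), 3 rather than 5 members were called between Pi16 progenitors and matrix fibroblasts, Hspg2 (adjusted p = 0.0538) and Lama4 (0.0664) being lost. With macrophage sums in the fit 3 were called, and Hspg2 was also lost in DESeq2 (adjusted p = 0.129) and under the study's cell limits (0.938), and Lama4 under the latter (0.130). No paired analysis of the diets was possible because there is 1 library per diet, and leaving out a library left values with no test. Class totals and barcodes of 2 classes kept each gave 6, with Nid1 added. The study's limits gave 4, of which 1, a member other than Lama4, was higher in Pi16 progenitors. With mesothelial barcodes out, 8 members were called and Col18a1 reversed to -0.59. Mural against matrix fibroblasts (8 members) gave 3 in DESeq2, 0 with class totals and 3 under the study's limits, and 9 with endothelial and mural barcodes in the mural class and 7 with barcodes of 2 classes kept, all of them lower. Col4a1 reversed there from -0.77 to 0.35 with class totals, to 0.20 under the study's limits and to between 0.30 and 0.38 without each library. Mural against endothelial (0 members) gave 2 with class totals, 1 under the study's limits and 2 with endothelial and mural barcodes in the mural class. The log2 diet ratio of the 10 genes together went from 0.43 to 0.37 with per-cell means and 0.54 under the study's limits in matrix fibroblasts, from 0.33 to 0.96 under those limits in Pi16 progenitors, from 0.37 to 0.66 with per-cell means and 0.63 under those limits in endothelial barcodes, and from 0.45 to 1.15 under those limits in the mural class. The limits left 55 and 75 matrix fibroblasts, 22 and 16 Pi16 progenitors, 49 and 55 endothelial and 1 and 1 mural barcodes, and turned the Lamc1 ratio in matrix fibroblasts to 0.34. Members past 1.5-fold went from 2 to 4 under the limits in matrix fibroblasts. In endothelial barcodes they went from 2 to 4 with per-cell means and to 1 with barcodes of 2 classes kept, under the limits and with doubled thresholds. In the mural class they went from 1 to 0 with TMM, with per-cell means and under the limits, and to 2 with barcodes of 2 classes kept or with endothelial and mural barcodes added. Over all genes, calls between Pi16 progenitors and matrix fibroblasts went from 1110 to 586 without the library term, 465 in DESeq2, 628 with macrophage sums and 149 under the study's limits. Those of mural against matrix fibroblasts went from 733 to 449 in DESeq2, 343 with class totals, 374 under the limits, 4360 with barcodes of 2 classes kept and 4111 with endothelial and mural barcodes added, and those of mural against endothelial from 584 to 339, 293, 347, 0 and 326 in the same order. With barcodes of 2 classes kept, 58 of 64 LFD and 108 of 116 HFD mural barcodes were also counted in the endothelial sums. The 0 calls there therefore say nothing about how alike the 2 classes are. Endothelial against matrix fibroblasts went from 3814 to 1489 under the limits, where 3208 genes could be tested. What caused these changes was not tested. Depth limits the mural class, where 9 of 10 members had under 50 UMIs over both libraries, and the absence of a replicate of either diet limits every diet ratio to a comparison of 2 libraries.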
